A study of Danio rerio with 6 samples.

Results

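The motor neuron homeobox genes mnx1, mnx2a, mnx2b, isl1, isl2a, isl2b, lhx3 and lhx4 were followed across 3 sorted cell populations of the zebrafish trunk. They were chosen by symbol, and all 8 were found among the 30677 symbols of the count tables, with 12 of the 54437 transcripts. RNA was sequenced from cells positive for GFP, which had been sorted from wild-type embryos at 14 hours post fertilisation once brain and tail were cut away. The olig2 cells came from the line TgBAC(olig2:GFP), the nkx2.2a cells from TgBAC(nkx2.2a:memGFP) and the dbx1b cells from TgBAC(dbx1b:GFP), with 2 libraries each. In each line the regulatory sequence of the named gene on a bacterial artificial chromosome drives GFP, a membrane form of it in the nkx2.2a line. Line, reporter and sort therefore cannot be told apart. The labels call all 3 populations neural progenitors and do not say whether the libraries of a group came from separate pools of embryos, so p-values measure the spread between these libraries.

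Motor neurons of the spinal cord arise from the progenitor domain that expresses olig2, which lies between the nkx2.2a domain next to the floor plate and the more dorsal domains, of which the dbx1b domain is one. As progenitors leave the cell cycle they switch on homeobox transcription factors. Isl1 with its relatives Isl2a and Isl2b, and Lhx3 with Lhx4, belong to the LIM homeodomain class, whose LIM domains bind the cofactor Ldb1, and in mouse an Isl1, Lhx3 and Ldb1 complex specifies motor neurons. Mnx1, known in mouse as Hb9, and its zebrafish relatives Mnx2a and Mnx2b hold the motor neuron programme against that of V2 interneurons, which also use Lhx3. Islet genes also mark other cells of the young zebrafish embryo, including Rohon-Beard sensory neurons of the dorsal spinal cord, isl1 is also used in heart progenitors, and mnx1 in the pancreas.

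The libraries held 6509032 to 13866834 reads mapped to transcripts, with 2 reads to a fragment, which is 19.4% to 33.4% of all reads. Levels are given as CPM, read counts scaled to a common library size and by edgeR's TMM factors. One fragment corresponded to 0.144 to 0.307 CPM before TMM scaling. Where a gene had no fragment, its level could still be as high as 0.423 to 0.913 CPM, depending on the library (3 fragments, counting error only). Every reporter gene was highest in its own sort. The gene olig2 stood at 220 and 125 CPM in olig2 cells, 19.3 and 70.5 CPM in nkx2.2a cells and 1.80 and 4.09 CPM in dbx1b cells. Levels of nkx2.2a in the same order were 8.22 and 26.5 CPM, 495 and 364 CPM, and 0.540 and 1.27 CPM. Those of dbx1b were 17.0 and 9.24 CPM (olig2 cells), 11.5 and 49.3 CPM (nkx2.2a cells) and 183 and 216 CPM (dbx1b cells). In these bulk samples, fewer cells that express a gene and less of its RNA per cell cannot be told apart.

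The 8 genes together were rare. They took 132 and 294 fragments in olig2 libraries 1 and 2, 318 and 352 in the nkx2.2a libraries and 371 and 818 in the dbx1b libraries, which is 0.00406% to 0.0118% of the mapped fragments of a library. Of the 8 genes, 6 and 7 had a fragment in the olig2 libraries, 6 and 6 in the nkx2.2a libraries, and 5 and 5 in the dbx1b libraries. The genes most read were mnx1 with 858 fragments over the 6 libraries and isl2a with 808, followed by isl1 with 343, mnx2b with 167 and isl2b with 78. The others had 24 fragments (lhx4), 5 (lhx3) and 2 (mnx2a).

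**Figure D1:**
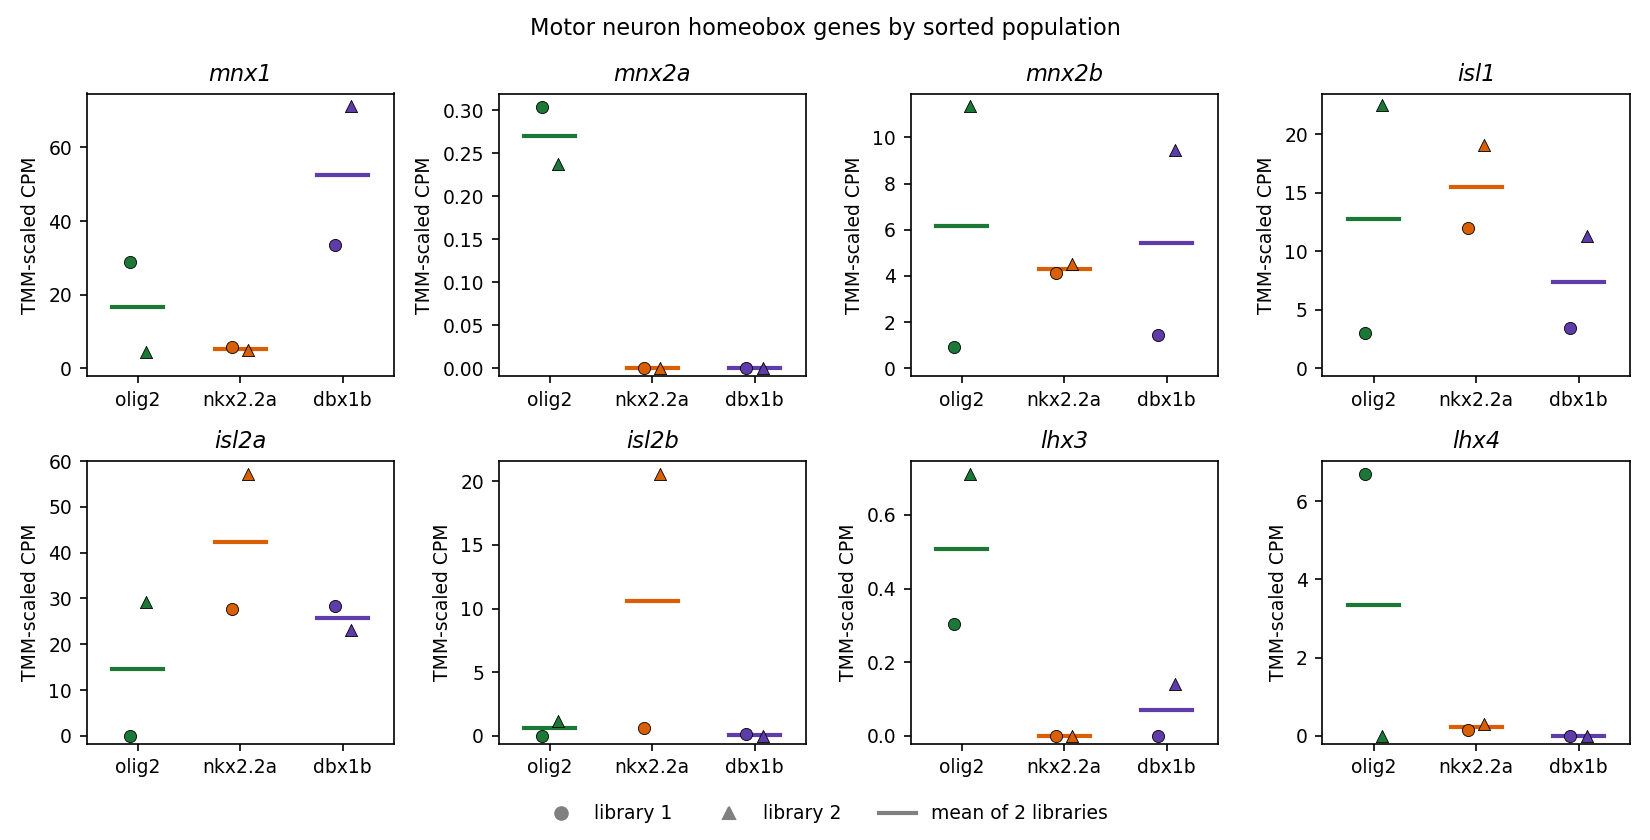
TMM-scaled CPM (vertical axes, a separate linear scale for each gene) of the 8 motor neuron homeobox genes in olig2, nkx2.2a and dbx1b cells. Circles are library 1, triangles library 2 and bars the mean of 2 libraries. The gene mnx1 was highest in both dbx1b libraries, isl2a was at 0 in olig2 library 1, and lhx4 and isl2b each rested on a single library.

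Transcripts of mnx1, which encodes the Mnx factor that consolidates motor neuron identity, were most abundant in the dbx1b sort. They stood at 28.9 and 4.50 CPM in olig2 libraries 1 and 2, at 5.68 and 4.84 CPM in the nkx2.2a libraries, and at 33.5 and 71.3 CPM in the dbx1b libraries. Both dbx1b libraries thus lay above all 4 others, though the gap between dbx1b library 1 and olig2 library 1 was within counting error. The olig2 libraries spanned the nkx2.2a level. Of the 858 fragments of mnx1, 506 (59.0%, 95% exact binomial interval 55.6% to 62.3%) came from dbx1b library 2, which held 23.4% of all mapped fragments. In olig2 cells the gene averaged 16.7 ± 17.3 CPM and in nkx2.2a cells 5.26 ± 0.598 CPM, against 52.4 ± 26.7 CPM in dbx1b cells (SD, n = 2 each).

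The mnx2 genes were scarcer. Transcripts of mnx2b stood at 0.913 and 11.4 CPM in the olig2 libraries, 4.11 and 4.54 CPM in the nkx2.2a libraries and 1.44 and 9.44 CPM in the dbx1b libraries. The nkx2.2a libraries lay close together, whereas in each of the other sorts library 2 was far above library 1, so that all 3 ranges overlapped. Fragments of mnx2a were seen in olig2 cells only, 1 in each library, against 0 in the nkx2.2a and dbx1b libraries. This level lies under the 3 fragments that a count of 0 allows, so a difference in mnx2a was not detectable at this depth.

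Among the islet genes, isl2a, which in zebrafish marks the caudal primary motor neuron, was the most abundant. It had 0 and 29.2 CPM in olig2 libraries 1 and 2, 27.6 and 57.2 CPM in the nkx2.2a libraries and 28.3 and 23.1 CPM in the dbx1b libraries. It was therefore present at a like level in 4 libraries, higher in nkx2.2a library 2, and without a fragment in olig2 library 1, where up to 0.913 CPM could have gone unseen. With 0.5 CPM added, the ratio between its olig2 libraries was larger than that of 99.6% of 16198 tested symbols with a mean of at least 1 CPM in that sort, where the median ratio was 2.07. In the other sorts its libraries differed by 2.05-fold (nkx2.2a) and 1.22-fold (dbx1b) on the same scale. Ratios between the olig2 libraries were less extreme for mnx1, isl1 and mnx2b, larger than those of 80.5%, 82.5% and 86.8% of the 16198 symbols.

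Levels of isl1, the first LIM homeobox gene switched on in new motor neurons, were 3.04 and 22.5 CPM in olig2 cells, 12.0 and 19.1 CPM in nkx2.2a cells, and 3.42 and 11.3 CPM in dbx1b cells. Library 2 was the higher of each sort. Both nkx2.2a libraries lay above both dbx1b libraries, though the nearest, at 12.0 and 11.3 CPM, differed by no more than counting error. The olig2 libraries spanned the whole range. The third islet gene, isl2b, had 0 and 1.19 CPM in olig2 cells, 0.632 and 20.6 CPM in nkx2.2a cells, and 0.180 and 0 CPM in dbx1b cells. Of its 78 fragments, 68 (87.2%, interval 77.7% to 93.7%) came from nkx2.2a library 2, which held 12.1% of mapped fragments, and 4 came from nkx2.2a library 1.

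The LIM homeobox genes lhx3 and lhx4 act together in early motor neurons and V2 interneurons. Fragments of lhx4 numbered 22 and 0 in olig2 libraries 1 and 2, 1 and 1 in the nkx2.2a libraries, and 0 and 0 in the dbx1b libraries. A single library, olig2 library 1, therefore held 91.7% (interval 73.0% to 99.0%) of them. Pooled over the libraries of a sort, the share of lhx4 among mapped fragments was 14.0-fold higher in olig2 than in nkx2.2a cells (counting interval 3.43 to 122). With the dbx1b group set to 3 fragments in place of 0, it was 12.7-fold higher in olig2 than in dbx1b cells. That value leaves out the counting error of the 22 olig2 fragments (13.8 to 33.3) and is no lower bound. Neither ratio covers the spread between libraries, and with olig2 library 2 at 0 they do not hold in both olig2 libraries. Fragments of lhx3 numbered 1 and 3 in the olig2 libraries, 0 and 0 in the nkx2.2a libraries, and 0 and 1 in the dbx1b libraries. The pooled ratio of lhx3 in olig2 over dbx1b cells was 6.91 (counting interval 0.684 to 341), so a difference was not detectable at this depth.

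Per length of transcript, the olig2 libraries held different mixtures of these genes. Levels were compared between genes as FPKM, which divides fragments by transcript length and library size, with the authors' values summed over the transcripts of each symbol. In olig2 library 1, mnx1 made up 70.8% of the summed FPKM of the 8 genes, lhx4 20.1% and the 3 islet genes together 4.96%. In olig2 library 2, the islet genes made up 71.2%, mnx2b 19.5%, mnx1 7.45% and lhx4 0%. The nkx2.2a libraries were islet-rich, with 76.2% and 89.4% from the 3 islet genes and 12.7% and 5.17% from mnx1. In the dbx1b libraries mnx1 gave 53.1% and 64.6%, and the islet genes 44.4% and 25.9%. Of these islet shares isl2a took 40.5% and 19.1% and isl1 3.64% and 6.79% of the summed FPKM.

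**Figure D2:**
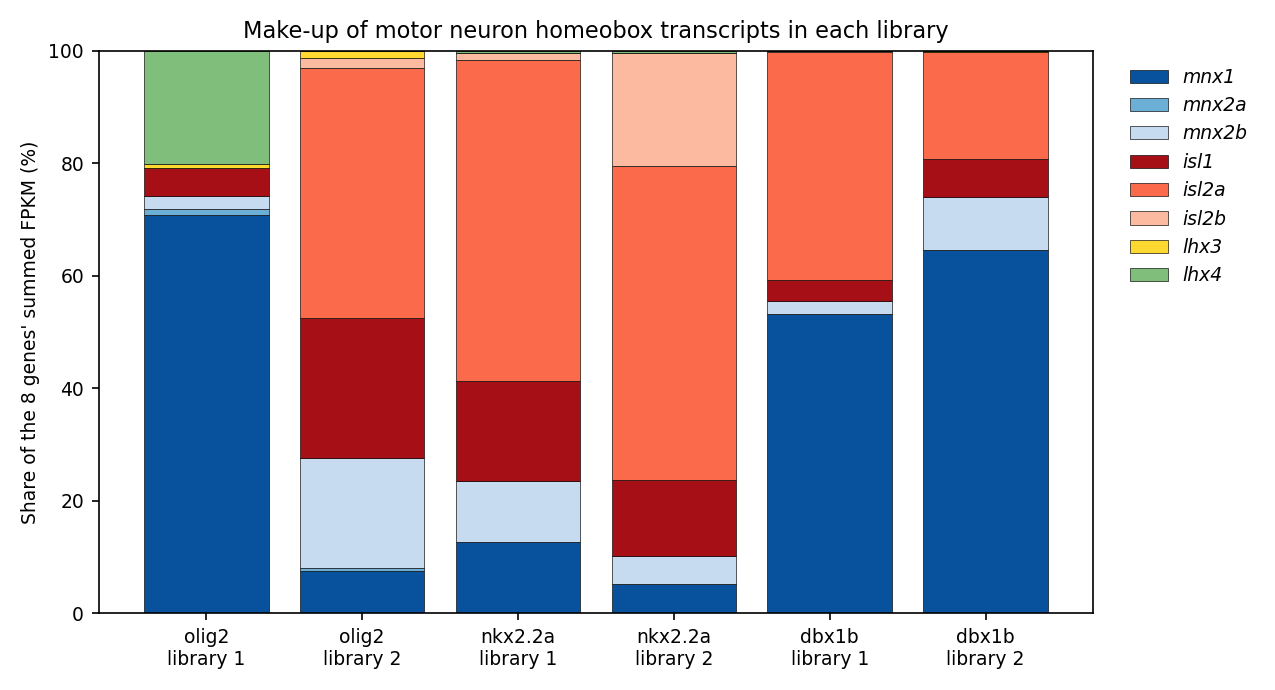
Share of the summed FPKM of the 8 genes (vertical axis, %) that each gene took in each of the 6 libraries. Blue shades are mnx genes, red shades islet genes, yellow lhx3 and green lhx4; mnx1 took 70.8% in olig2 library 1 and 7.45% in olig2 library 2, against 53.1% and 64.6% in the dbx1b libraries.

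The summed FPKM of all 8 genes was 24.2 and 35.9 in the olig2 libraries, 28.5 and 50.7 in the nkx2.2a libraries and 34.9 and 66.5 in the dbx1b libraries, so the olig2 sums lay below or inside the range of the other sorts. Without mnx1 the sums were 7.07 and 33.2 in olig2 cells, 24.9 and 48.1 in nkx2.2a cells, and 16.3 and 23.6 in dbx1b cells. By mean FPKM, the order in olig2 cells was mnx1 (9.92 ± 10.2), isl2a (7.99 ± 11.3), isl1 (5.08 ± 5.49) and mnx2b (3.78 ± 4.56), and no neighbours in that order differed beyond their SD. In nkx2.2a cells isl2a led (22.3 ± 8.55), ahead of isl1 (5.97 ± 1.23), isl2b (5.26 ± 6.91) and mnx1 (3.13 ± 0.715). In dbx1b cells mnx1 led (30.7 ± 17.2), ahead of isl2a (13.4 ± 1.01) and mnx2b (3.55 ± 3.81). In nkx2.2a cells the FPKM of isl2a exceeded that of isl1 in both libraries (16.2 and 28.3 against 5.10 and 6.84). In dbx1b cells that of mnx1 exceeded that of isl2a in both (18.5 and 42.9 against 14.1 and 12.7).

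Of the 12 transcripts, isl1 had 2, mnx2b 2 and isl2a 3, and the other genes 1 each. The predicted isl1 transcript of 2572 bases took 263 of the gene's 343 fragments (76.7%) and the curated one of 2490 bases took 80. The curated transcript's share was 20.0% and 36.8% in the olig2 libraries, 21.1% and 7.94% in the nkx2.2a libraries, and 42.1% and 17.5% in the dbx1b libraries. Within each sort the 95% exact binomial intervals of the libraries overlapped. Between sorts, that of nkx2.2a library 2 lay below those of olig2 library 2 and dbx1b library 1, and the other pairs of libraries overlapped. In libraries 1 and 2 those intervals were 2.52% to 55.6% and 27.2% to 47.4% (olig2), and 12.5% to 31.9% and 2.63% to 17.6% (nkx2.2a). They were 20.3% to 66.5% and 9.91% to 27.6% in the dbx1b libraries. For mnx2b the curated transcript of 1247 bases took 0 of 51 olig2 fragments, 10 of 26 and 0 of 15 in the nkx2.2a libraries, and 1 of 8 and 13 of 67 in the dbx1b libraries. The sources used here do not say how fragments matching several transcripts of a gene were assigned. The levels of these genes are therefore given per symbol. Summing does not settle how shared fragments were counted. Comparisons of level between genes, such as isl2a with 3 transcripts and mnx1 with 1, depend on it.

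The first comparison asks how the motor neuron genes differ between the olig2 cells and their ventral neighbours, the nkx2.2a cells. The libraries of the 5 tested members, mnx1, mnx2b, isl1, isl2a and isl2b, overlapped for each gene, where 35.8% of tested symbols had separated libraries (15.7% higher and 20.0% lower). The genes mnx2a, lhx3 and lhx4 fell under the filter on low counts, and since each was seen mainly or only in olig2 cells, the tested 5 leave out the members of that pattern (both olig2 libraries of mnx2a and lhx3 lay above both nkx2.2a libraries, on 2 and 4 olig2 fragments). The log2 fold change, olig2 over nkx2.2a, was 1.66 ± 1.00 (SE) for mnx1, 0.51 ± 1.64 for mnx2b, -0.28 ± 1.24 for isl1, -1.53 ± 1.58 for isl2a and -4.10 ± 2.45 for isl2b. By edgeR's quasi-likelihood test with Benjamini-Hochberg adjustment, 0 of the 5 passed (adjusted p = 0.656 to 0.976, unadjusted p = 0.127 to 0.828). This test called 0 of 19129 symbols (0%), with 1673 at unadjusted p under 0.05 (8.75%), and DESeq2 called 578 (3.02%, and 2.25% lower), none of the members among them. The 95% interval of mnx1 ran from -0.59 to 3.91 and that of isl2a from -5.10 to 2.03, and both intervals take in changes of more than 2-fold. Single libraries decided the direction: mnx1 was at -0.22 without olig2 library 1, mnx2b at -2.24 without olig2 library 2, and isl1 at 0.54 without olig2 library 1 and 0.09 without nkx2.2a library 2. They also set the size for the islet pair: isl2b was at -0.078 without nkx2.2a library 2 and -9.74 without olig2 library 2, and isl2a at -0.53 without olig2 library 1, -0.92 without nkx2.2a library 2 and -11.75 without olig2 library 2. The values without olig2 library 2 set olig2 cells at 0 fragments and are no bound. With 2 libraries against 2, an exact two-sided permutation test of any single gene cannot give a p below 0.333.

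The second comparison sets the olig2 cells against the dbx1b cells. Here the olig2 libraries lay below both dbx1b libraries for mnx1, 1 of the 5 tested members and the one with separated libraries, where 43.7% of tested symbols had separated libraries (18.3% higher and 25.4% lower). The nearest libraries for mnx1 stood at 28.9 CPM (olig2, 95 fragments) and 33.5 CPM (dbx1b, 186 fragments), a gap within counting error. The log2 fold change, olig2 over dbx1b, was -1.65 ± 0.99 for mnx1 (interval -3.88 to 0.58), 0.18 ± 1.63 for mnx2b, 0.80 ± 1.25 for isl1, -0.81 ± 1.56 for isl2a and 2.64 ± 2.43 for isl2b. By edgeR 0 of the 5 passed (adjusted p = 0.615 to 0.988, unadjusted p = 0.129 to 0.916), and 0 of 19129 symbols did (0%), with 1823 at unadjusted p under 0.05 (9.53%). DESeq2 called 716 symbols (3.74%, and 2.09% lower), again without a member. The mnx1 value was -3.55 without olig2 library 1 and -0.88 without olig2 library 2. The sign turned for isl1 (-1.30), isl2b (-3.00) and mnx2b (-2.59) without olig2 library 2, for isl2a (0.17) without olig2 library 1, and for mnx2b (-0.63) without dbx1b library 1. The isl2b value rests on 5 fragments in olig2 cells against 1 in dbx1b cells, a pooled ratio of 8.64 with a counting interval of 0.967 to 409.

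**Figure D3:**
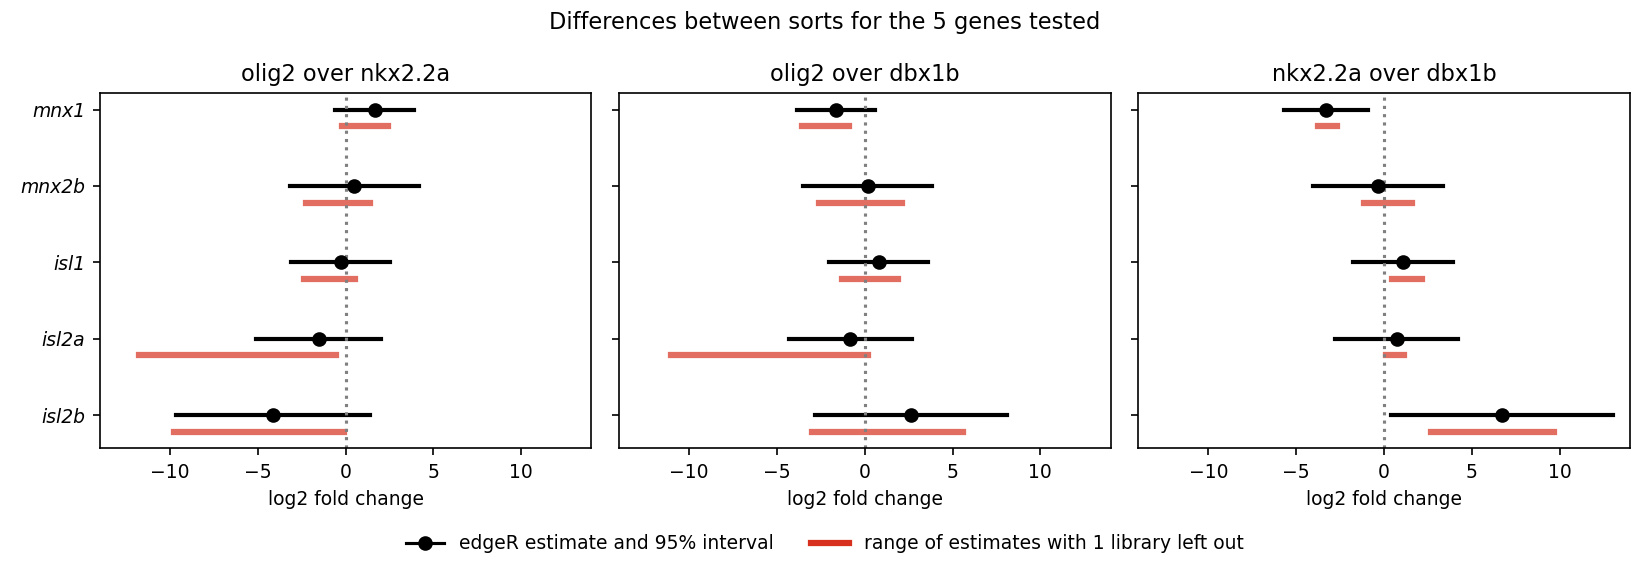
Log2 fold changes (horizontal axes) of the 5 tested genes in the 3 comparisons. Black points and lines are edgeR estimates with 95% intervals, and red bars span the estimates with each of the 6 libraries left out in turn. The red bar of mnx1 is negative throughout in nkx2.2a over dbx1b cells (-3.77 to -2.65) and in olig2 over dbx1b cells (-3.55 to -0.88). Red bars cross 0 for mnx1, mnx2b and isl1 in olig2 over nkx2.2a cells. They cross 0 for mnx2b, isl1, isl2a and isl2b in olig2 over dbx1b cells, and for mnx2b alone in nkx2.2a over dbx1b cells.

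In nkx2.2a compared with dbx1b cells, mnx1 was lower and isl2b higher at an unadjusted p under 0.05, and neither passed over all genes with edgeR. The level of mnx1 was 5.68 and 4.84 CPM in nkx2.2a cells, against 33.5 and 71.3 CPM in dbx1b cells, a log2 fold change of -3.31 ± 1.06 (interval -5.70 to -0.93, edgeR unadjusted p = 0.0117, adjusted p = 0.685). DESeq2 called it (-3.27, adjusted p = 0.0357), 1 of 136 symbols it called lower (0.711%) among 375 called in all (1.96%). The direction held in all 15 other fits, with values of -3.77 to -2.65, though the filter of 1 CPM in 2 libraries repeated the main value. In the edgeR fits among them that kept 2 libraries per group, adjusted p was 0.141 to 0.756. The log2 fold change of isl2b was 6.75 ± 2.81 (interval 0.42 to 13.07, edgeR unadjusted p = 0.0389, adjusted p = 0.784). DESeq2 gave isl2b an adjusted p of 0.138. The difference rested on 72 fragments in nkx2.2a cells, 68 of them from library 2, against 1 in dbx1b cells. The pooled ratio was 98.1, with a counting interval of 17.1 to 3928 that leaves out the spread between libraries. Without nkx2.2a library 2 the log2 fold change was 2.70. With fragments in place of reads, or with only the 4 libraries compared, isl2b fell under the filter and was not tested. The other 3 tested members had unadjusted p of 0.414 to 0.842, with log2 fold changes of 1.08 ± 1.26 for isl1, 0.72 ± 1.55 for isl2a and -0.33 ± 1.63 for mnx2b, the last of which was 1.59 without dbx1b library 2. In this comparison edgeR called 1 of 19129 symbols (0.00523%), nkx2.2a itself (log2 fold change 8.85, adjusted p = 0.0312), and 1200 had an unadjusted p under 0.05 (6.27%). Libraries were separated for 3 of the 5 members, isl1 and isl2b higher and mnx1 lower, where 40.1% of tested symbols were separated (19.1% higher and 21.0% lower). For isl1 the nearest libraries stood at 12.0 and 11.3 CPM (76 and 80 fragments), and for isl2b they had 4 fragments and 1. Both of these gaps lie within counting error.

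Genes that act upstream of or alongside the motor neuron homeobox genes were summarised by lists. None of their members passed edgeR over all genes in any comparison, so counts are given at an unadjusted p under 0.05. By that measure 2.62% of all tested symbols were higher and 6.12% lower in olig2 over nkx2.2a cells, 3.7% higher and 5.83% lower in olig2 over dbx1b cells, and 3.61% higher and 2.67% lower in nkx2.2a over dbx1b cells. Of 6 tested motor neuron progenitor regulators, 2 were higher and 0 lower in olig2 over nkx2.2a cells (median log2 fold change 0.47 against -0.05 over all tested symbols). They were olig2 itself (1.94 ± 0.72), whose reporter defined the sort, and pax6a (2.26 ± 0.44), which represses the nkx2.2a fate. In olig2 over dbx1b cells 3 were higher and 1 lower (median 0.78 against -0.05). The higher ones were again olig2 itself (5.86 ± 0.87), as the sort fixed, with nkx6.1 (3.34 ± 0.47) and nkx6.2 (1.64 ± 0.47), which promote motor neuron progenitors. In nkx2.2a over dbx1b cells 3 were higher, nkx6.1 (2.51 ± 0.45), nkx6.2 (1.71 ± 0.47) and olig2 (3.91 ± 0.79), and 2 lower, among them pax6a (-2.34 ± 0.44), with a median of 0.57 against 0.00. As sums that include olig2, these regulators stood at 958 and 760 CPM in olig2 cells (220 and 125 CPM of it olig2), 513 and 516 CPM in nkx2.2a cells and 578 and 484 CPM in dbx1b cells.

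Genes of newborn neurons had their highest summed level in the olig2 sort. Of 23 tested neurogenesis and early neuron genes, 5 were higher and 0 lower in olig2 over nkx2.2a cells (median 0.54 against -0.05), 7 were higher and 1 lower in olig2 over dbx1b cells (1.58 against -0.05), and 4 were higher and 0 lower in nkx2.2a over dbx1b cells (0.48 against 0.00). The neuronal RNA-binding protein gene elavl3 had 1378 and 1226 CPM in olig2 cells, 711 and 428 CPM in nkx2.2a cells and 456 and 359 CPM in dbx1b cells. Its log2 fold change was 1.19 ± 0.34 in olig2 over nkx2.2a cells (edgeR adjusted p = 0.535) and 1.68 ± 0.34 relative to dbx1b cells (edgeR adjusted p = 0.315). The proneural gene neurog1 had 84.6 and 71.6 CPM in olig2 cells, 20.2 and 7.56 CPM in nkx2.2a cells, and 54.0 and 15.6 CPM in dbx1b cells. The olig2 libraries were close for elavl3 and neurog1, but not for the axon growth gene gap43, with 2.13 and 28.4 CPM there. The summed level of the list was 3887 and 3278 CPM in olig2 cells, 2565 and 1987 CPM in nkx2.2a cells and 2302 and 1784 CPM in dbx1b cells.

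Transmitter and effector genes of motor neurons summed to 301 and 215 CPM in olig2 cells, 304 and 364 CPM in nkx2.2a cells and 232 and 221 CPM in dbx1b cells, with wide differences between genes. The choline acetyltransferase gene chata had 5 fragments in all 6 libraries. The vesicular acetylcholine transporter gene slc18a3a had 14.9 and 9.48 CPM in olig2 cells and 12.9 and 0 CPM in nkx2.2a cells, against 0 and 0.141 CPM in dbx1b cells. The gene prdm14, a regulator of motor axon growth in zebrafish, had 35.0 and 9.72 CPM in olig2 cells, 13.3 and 10.9 CPM in nkx2.2a cells and 2.16 and 3.66 CPM in dbx1b cells. Both were higher at an unadjusted p under 0.05 in olig2 over dbx1b cells (prdm14 2.93 ± 1.16, edgeR adjusted p = 0.503), 2 of 10 tested members of this list, with 1 lower, the neuropilin gene nrp1a (-3.00 ± 0.73). The median was 0.31 against -0.05. In olig2 over nkx2.2a cells 0 were higher and 2 lower, nrp1a and agrn (median -0.49 against -0.05), and in nkx2.2a over dbx1b cells 1 was higher and 0 lower, slc18a3a (0.80 against 0.00).

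The 12 cofactors of LIM homeodomain proteins had a far higher summed CPM than the LIM homeobox genes, a measure not corrected for transcript length. The cofactor sum was 1506 and 990 CPM in olig2 cells, 1049 and 1017 CPM in nkx2.2a cells and 1443 and 1309 CPM in dbx1b cells. The Ldb1 gene ldb1a, which encodes the LIM-binding adaptor, had 360 and 196 CPM in olig2 cells, 327 and 255 CPM in nkx2.2a cells and 407 and 386 CPM in dbx1b cells. Of 11 tested cofactors, lmo3, a LIM-only gene whose relatives compete for Ldb1, was the single one higher in olig2 over nkx2.2a cells (2.53 ± 0.86), and 0 passed an unadjusted p of 0.05 in either comparison with dbx1b cells. The medians were 0.29, -0.05 and -0.33 in olig2 over nkx2.2a, olig2 over dbx1b and nkx2.2a over dbx1b cells, against -0.05, -0.05 and 0.00 over all tested symbols.

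Some other LIM homeobox genes also differed widely between the olig2 libraries. The gene lhx1b had 0 and 56.9 CPM in olig2 libraries 1 and 2, and lhx2b had 8.22 and 80.6 CPM. In the opposite sense lhx5 had 32.3 and 1.42 CPM there. Of 9 tested members, 1 was lower in olig2 over nkx2.2a cells, lmx1bb (-3.91 ± 1.38), and lhx2b was the single one higher both in olig2 over dbx1b (5.36 ± 1.51) and in nkx2.2a over dbx1b cells (3.64 ± 1.40). The medians were 1.16, 2.03 and 1.05 in the same order of comparisons. Of 9 tested regulators of spinal interneurons, 0 passed an unadjusted p of 0.05 in olig2 over nkx2.2a cells. In olig2 over dbx1b cells sim1a, a V3 interneuron gene, was higher (3.02 ± 1.23). The V0 interneuron genes evx1 (-7.52 ± 2.93) and evx2 (-7.51 ± 3.15) were lower, with 0 CPM in both olig2 libraries. Their levels in the dbx1b libraries were also low, 3.60 and 0.987 CPM for evx1 and 2.16 and 2.40 CPM for evx2. In nkx2.2a over dbx1b cells gata2a was higher (2.15 ± 0.90). The medians of this list were -1.32, 0.26 and 0.08. The V2 interneuron gene vsx1 had 14 fragments in all 6 libraries, and sox14 had 0.

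Markers of tailbud and presomitic mesoderm, like mnx1, were highest in the dbx1b libraries. Their summed level, over 12 of 13 listed genes found, was 581 and 499 CPM in olig2 cells, 265 and 489 CPM in nkx2.2a cells and 2154 and 2204 CPM in dbx1b cells. At an unadjusted p under 0.05, 10 of the 12 were lower in olig2 over dbx1b cells (median -3.25) and 11 were lower in nkx2.2a over dbx1b cells (median -2.60), with 0 higher in either. In olig2 over nkx2.2a cells 1 was higher and 2 lower (median -0.44). None of the 12 was at 0 in a dbx1b library, and msgn1, a presomitic mesoderm gene, had 11.3 and 11.6 CPM in olig2 cells, 18.3 and 12.1 CPM in nkx2.2a cells, and 271 and 152 CPM in dbx1b cells. Between the libraries of a sort, single genes weighed on these sums. In olig2 libraries 1 and 2 mnx1 was at 28.9 and 4.50 CPM. The tailbud sum there also fell, from 581 to 499 CPM, of which cdx4 gave 372 and 300 CPM. In dbx1b cells mnx1 was at 33.5 and 71.3 CPM, while the tailbud sums were nearly equal. In nkx2.2a cells mnx1 was at 5.68 and 4.84 CPM, while the tailbud sum was higher in library 2. Of that sum tbx6 gave 42.2 and 237 CPM in libraries 1 and 2, whereas cdx4 gave 91.9 and 86.2 CPM and msgn1 18.3 and 12.1 CPM. Endoderm and pancreas markers summed to 101 and 67.3 CPM in olig2 cells, 112 and 116 CPM in nkx2.2a cells and 97.4 and 188 CPM in dbx1b cells. The part of such cells in the mnx1 level was not tested.

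Markers of several other tissues differed between libraries of a sort in which the islet genes also differed. The 5 hatching gland markers summed to 3.04 and 117 CPM in olig2 libraries 1 and 2, 863 and 503 CPM in the nkx2.2a libraries, and 4.68 and 18.5 CPM in the dbx1b libraries. The 5 heart and lateral plate markers summed to 11.9 and 94.1 CPM in the olig2 libraries, 17.4 and 51.4 CPM in the nkx2.2a libraries and 26.5 and 28.8 CPM in the dbx1b libraries. In both lists olig2 library 2 lay above library 1, as it did for isl1, isl2a and mnx2b. In nkx2.2a cells, however, the hatching gland sum was lower in library 2, where isl1, isl2a and isl2b were higher. Sums of the other tissue lists fell from olig2 library 1 to 2. They were 1146 and 934 CPM (epidermis), 354 and 250 CPM (brain), 257 and 193 CPM (muscle) and 101 and 67.3 CPM (endoderm), with smaller falls for notochord and neural crest. Of the heart markers, hand2 had 4.87 and 67.3 CPM in olig2 libraries 1 and 2 and so made up most of the sum in library 2. The others had 0.304 and 12.6 CPM (nkx2.5), 3.35 and 11.9 CPM (tbx20), 0.609 and 1.66 CPM (tbx5a) and, in the opposite sense, 2.74 and 0.711 CPM (gata4). Of 4 tested hatching gland markers, 3 were lower in olig2 over nkx2.2a cells, 1 higher in olig2 over dbx1b cells and 3 higher in nkx2.2a over dbx1b cells, and of the heart markers only hand2 passed, higher in olig2 over dbx1b cells. Notochord and floor plate markers gave 6 of 9 lower, 2 higher with 1 lower, and 5 higher in the same order of comparisons. Epidermis markers gave 4 of 8 lower, 1 higher with 2 lower, and 4 higher, and brain markers 3 of 8 lower, 1 lower and 3 higher. Endoderm, muscle and neural crest lists had at most 2 genes past this p in any comparison. The part of these cells in the islet levels was not tested.

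The Rohon-Beard sensory neuron markers found summed to 125 and 85.6 CPM in olig2 cells, 178 and 203 CPM in nkx2.2a cells and 72.0 and 137 CPM in dbx1b cells. The full sum was thus lowest in dbx1b library 1. Most of it was prdm1a, which other tissues also use. Without prdm1a, 9 found markers summed to 14.0 and 1.66 CPM in olig2 cells, 25.0 and 55.3 CPM in nkx2.2a cells and 9.72 and 17.9 CPM in dbx1b cells. That sum was lowest in olig2 library 2. The gene six1b gave 8.53 and 30.5 CPM of this sum in nkx2.2a cells. The nkx2.2a library with the higher sum, library 2, was also the one that held most isl2b fragments. The tested markers in this sum did not all run the same way there. Both six1b and scn8aa were higher in nkx2.2a library 2 than in library 1, whereas tlx3b was lower. In olig2 library 2, where isl1 and isl2a stood at 22.5 and 29.2 CPM, 4 of the 9 had a fragment, and tlx3b, six1b and runx3 were among those at 0. Fewer, 2 of the 9, had a fragment in dbx1b library 1. With 4 of 11 listed genes tested, 2 were lower in olig2 over nkx2.2a cells (median -5.24) and 2 in olig2 over dbx1b cells (-4.37), in each case six1b and tlx3b, which were at 0 in both olig2 libraries. In nkx2.2a over dbx1b cells 0 of the 4 passed an unadjusted p of 0.05 (1.18). The part of sensory neurons in the islet levels was not tested.

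**Figure D4:**
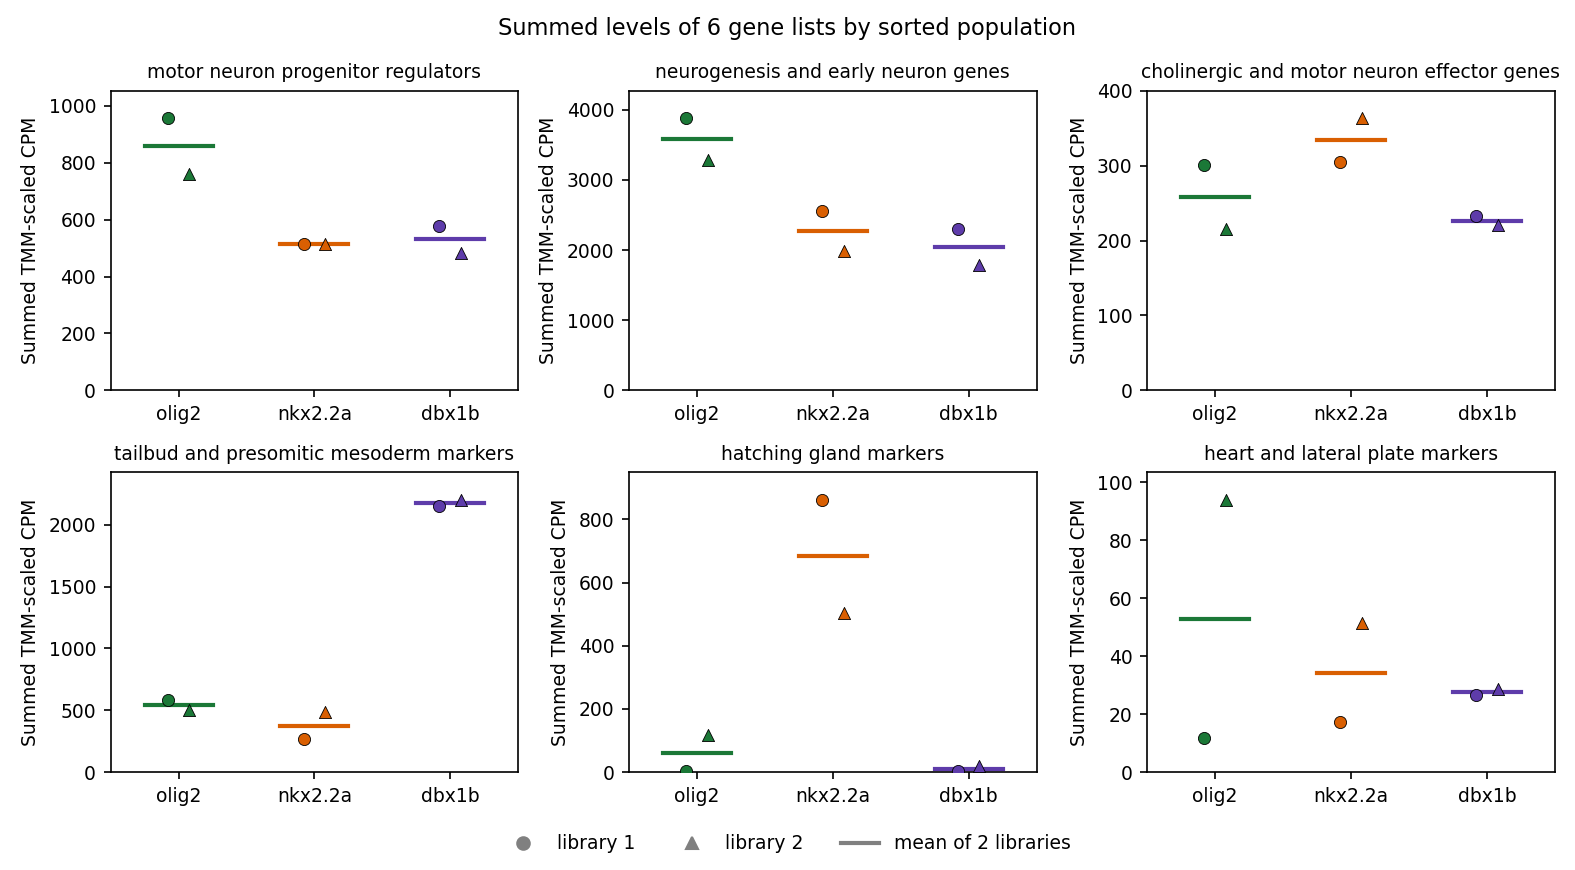
Summed TMM-scaled CPM (vertical axes, each from 0) of 6 gene lists in olig2, nkx2.2a and dbx1b cells; circles are library 1, triangles library 2 and bars the mean of 2 libraries. Early neuron genes were highest in both olig2 libraries (3887 and 3278 CPM), tailbud markers in both dbx1b libraries (2154 and 2204 CPM), and hatching gland markers in both nkx2.2a libraries (863 and 503 CPM).

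The symbols whose levels ran most like those of a member over the 6 libraries were found by the mean absolute difference of log2(CPM + 0.5) after centring, among 12506 other symbols with a mean of at least 5 CPM. For mnx1, 2 of the nearest 3 were the tubulin gene tuba2 and the protocadherin gene pcdh2g9, which differed by 0.41 and 0.45 on the log2 scale, where the median over all symbols compared was 1.5. The gene tuba2 had 7.30 and 0.474 CPM in olig2 cells, 0.632 and 1.21 CPM in nkx2.2a cells, and 5.04 and 26.8 CPM in dbx1b cells. For isl2a the nearest were plekhg2 (0.29), the GDNF receptor gene gfra1a (0.35) and the tetraspanin gene cd9b (0.42), against a median of 1.76. The gene gfra1a, picked for its likeness to isl2a, had 0 CPM in olig2 library 1 and 38.2 CPM in olig2 library 2. The nearest to isl1 were camsap3, wdr34 and pi4k2b (0.20 to 0.25, median 1.13), and 1 of the nearest 3 to mnx2b was slc41a2 (0.26, median 1.19). The genes mnx2a, isl2b, lhx3 and lhx4 averaged under 5 CPM and were not compared.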

How the data were processed

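Counts were deposited as mapped reads per RefSeq transcript, not normalised, per the file layout. Per the submitters' processing notes, Bowtie 1.1.1, FastQC 0.11.3 and the build GRCz10 were used, in roles not stated. All counts are even, so both mates of a fragment were counted; fragments are the counts divided by 2. Unmapped reads (66.6% to 80.6%) stayed out. The deposited FPKM values equal those recomputed from the counts (326622 of 326622 within a relative 1e-06). A table of group means was not used, since its mnx1 row did not match that transcript's FPKM.

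Counts were summed per symbol and tested with edgeR 4.0.16 in R 4.3.3 (quasi-likelihood fit, filterByExpr with minimum count 10, TMM, 1 mean per group over all 6 libraries, 3 residual degrees of freedom), which left 19129 symbols. Calls used Benjamini-Hochberg adjusted p under 0.05. Standard errors derive from the F statistic, CPM are TMM-scaled, and pooled ratios use mapped fragments. The libraries of each group were not copies of each other (chi-square of their counts 44.1 to 51.0 for each degree of freedom). Of the 12 member transcripts, 10 matched a gene of the RefSeq table for GRCz12tu, where isl1 is called isl1a and overlaps 2 other genes. Whether counting used strand is not stated. No sequences or coordinates are given. Genes, 16 lists, the rule for named genes (members, reporters, up to 3 genes of smallest edgeR p per list and comparison, and nearest profiles) and alternatives were chosen with earlier results of these data known. The list genes chata, gap43, lhx5, vsx1, sox14 and runx3 were chosen after their values were seen. Some genes the rule names are not reported here. DESeq2 1.42.0 was an alternative. The edgeR step was tested on simulated data.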

Additional observations from a re-analysis of the deposited data

How the results depend on the processing

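The counts of called symbols depended on the tool and the filter. In olig2 over nkx2.2a, olig2 over dbx1b and nkx2.2a over dbx1b cells edgeR called 0, 0 and 1. DESeq2 called 578, 716 and 375, and edgeR with no filter beyond 1 count called 233, 292 and 238. With fragments in place of reads the olig2 over dbx1b count was 2, and with a replicate block it was 3. In nkx2.2a over dbx1b cells the count was 2 with only the 4 libraries compared, and 0 with no composition scaling or with transcripts as features. With a library left out the counts ranged from 0 to 6, 0 to 7 and 0 to 65 in the same order of comparisons. The filter of 1 CPM in 2 libraries kept the same number of symbols as the main one and gave the same member values, so it adds no check.

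Over 219 alternative fits of the member differences, 205 kept their direction and side of the threshold, 13 turned the direction and 1 gained a call (mnx1 in nkx2.2a over dbx1b cells with DESeq2, -3.27, adjusted p = 0.0357). These fits include the filter of 1 CPM in 2 libraries, which repeats the main values. Since edgeR called almost no symbols in the main fits, keeping the side of the threshold says little. With the replicate block, mnx2b turned in all 3 comparisons (-0.56, -0.029 and 0.53). The block changed no member's call. Libraries with the same number did not deviate together over all tested symbols (correlation of deviations -0.0142 to 0.0235 over 19129 symbols). This does not settle whether they were prepared as pairs. With a library left out, mnx1 ranged from -0.22 to 2.44 in olig2 over nkx2.2a cells, from -3.55 to -0.88 in olig2 over dbx1b cells and from -3.77 to -2.65 in nkx2.2a over dbx1b cells. The ranges of mnx2b were -2.24 to 1.40, -2.59 to 2.11 and -1.14 to 1.59 in the same order. Those of isl1 were -2.36 to 0.54, -1.30 to 1.92 and 0.44 to 2.19. Those of isl2a were -11.75 to -0.53, -11.05 to 0.17 and 0.10 to 1.17, where the extreme negative values set a lone olig2 library at 0 against the rest. Those of isl2b were -9.74 to -0.078, -3.00 to 5.58 and 2.70 to 9.67. A group left with a single library is assumed to vary like the others. CPM by library totals moved no member's mean by more than its SD. Low counts limit mnx2a, lhx3 and lhx4, and isl2b outside nkx2.2a library 2. They also left isl2b untested with fragments in place of reads and with only the 4 libraries compared. For lhx4 the olig2 libraries also disagreed, with 22 fragments in library 1 and 0 in library 2.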
